A study of Homo sapiens with 6 samples.

Results

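The baseline transcriptome of U2OS cells was described from the 3 libraries labelled Lv_NC, out of 6 RNA-seq libraries in a study of LINC00673 depletion in osteosarcoma. They were chosen by their titles alone, and only their columns of the deposited gene count table and gene FPKM table were used. U2OS is an established human line from an osteosarcoma, a bone-forming tumour of mesenchymal origin. All 3 libraries carry the genotype label NC and no drug, dose or time label. The titles do not say what NC or Lv stands for, and the series design speaks of wildtype U2OS cells. The RNA was total RNA extracted with TRIzol and made into libraries with a TruSeq RNA kit. The labels do not state whether separate cultures were used, so the spread between them may be technical. No comparison with the other 3 libraries was made, and with 1 group no test was run.

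Osteoblasts arise from mesenchymal progenitors. RUNX2 and then SP7 are the transcription factors known to commit a progenitor to bone, and the mature cell secretes type I collagen and the mineral-binding proteins osteocalcin (BGLAP), bone sialoprotein (IBSP) and osteopontin (SPP1). Chondrocytes, adipocytes, tendon cells and muscle cells are the neighbouring mesenchymal fates, each with its own regulators. U2OS is also known as a line that keeps its telomeres by recombination rather than by telomerase and in which the CDKN2A gene is silent.

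The libraries held 81148605, 87227980 and 76814723 counts. The tables had 50550 rows, and 12301 of them were on, 10134 were between and 28115 were off. A row was called on where it had at least 1 FPKM (fragments counted, scaled by transcript length and library depth) in each of the 3 libraries, off where it had under 0.1 FPKM in each, and between otherwise. Of the rows, 19874 had 0 counts in all 3 libraries. A count of 0 allows up to 3 counts, which is 0.0370, 0.0344 and 0.0391 CPM (counts scaled to the library total) in libraries 1 to 3, for counting error only. The number of rows with a given low count did not fall smoothly. In library 1, 671 rows had 3 counts, 1140 had 4, 669 had 5, 326 had 7, 636 had 8 and 357 had 9, and the peaks at 4, 8 and 12 were present in all 3 libraries. A count was therefore treated as a unit that need not be 1 independent fragment, and the cause of the peaks was not tested.

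Of 19419 protein-coding genes, 9875 (50.9%) were on, 4282 (22.1%) between and 5262 (27.1%) off, numbered copies of a gene left out. The median level of the genes on was 10.05 FPKM, with quartiles of 3.62 and 28.9 FPKM. In the single libraries that median was 10.2, 9.63 and 10.1 FPKM. A small set of genes carried much of the RNA. The 58 protein-coding genes of 1000 FPKM or more took 14.4% ± 0.284 (SD, n = 3) of all counts, and the 677 genes from 100 to 1000 FPKM took 29.2% ± 0.567. The 4217 genes from 10 to 100 FPKM took the largest share among these level groups, 37.0% ± 0.178. The 5401 genes from 1 to 10 FPKM held 8.86% ± 0.624, and the 3266 genes from 0.1 to 1 FPKM held 0.722% ± 0.0988. In all, 681 rows held 50% of the counts, with 697, 650 and 684 rows in the single libraries, and 5324 rows held 90%.

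**Figure D1:**
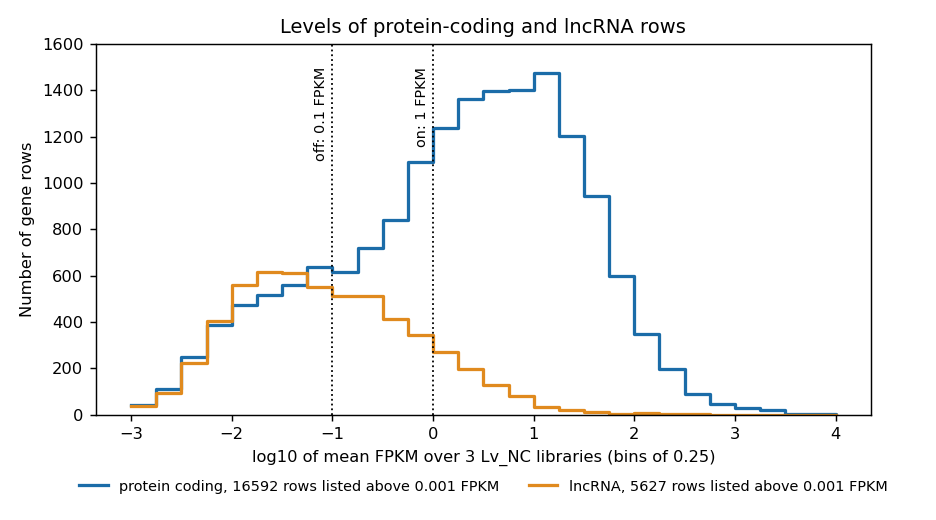
Number of gene rows (vertical axis) by the log10 of mean FPKM over the 3 Lv_NC libraries (horizontal axis, bins of 0.25), for protein-coding rows and long noncoding RNA rows listed above 0.001 FPKM; dotted lines mark 0.1 and 1 FPKM. The protein-coding curve peaks to the right of 1 FPKM and the long noncoding curve to the left of 0.1 FPKM.

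The most abundant named transcript was GAPDH, a glycolytic enzyme, at 8891, 9435 and 9487 FPKM (9271 ± 330, SD, n = 3). MT2A, a metallothionein that binds zinc and copper, came next at 5847, 6892 and 7233 FPKM. Library 1 was the lowest for both. RPS2, a protein of the small ribosomal subunit, had 5622, 6151 and 5970 FPKM, and ACTB, cytoplasmic beta-actin, had 5484, 5894 and 5886 FPKM. The spread of these genes was small beside their levels, and the order of RPS2 and ACTB was the same in every library although their ranges overlap. TMSB10, an actin monomer-binding peptide, averaged 4366 ± 219 FPKM. Another 10 ribosomal proteins stood among the 20 highest protein-coding rows, led by RPL8 at 4765 ± 292 FPKM. Other genes among those 20 were ENO1 (enolase, 2880 ± 127 FPKM), ACTG1 (gamma-actin, 2672 ± 156), HMGA1 (a chromatin protein that bends AT-rich DNA, 2423 ± 298), LGALS1 (galectin-1, 2405 ± 222) and FTL (ferritin light chain, 2398 ± 160). The keratin KRT81, a hair keratin, ranked 23 at 1966, 2085 and 1740 FPKM.

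Genes of basic cell functions were mostly on. All 16 genes of a housekeeping list and all 20 of a proliferation list were on, as were 18 of 20 glycolysis genes, beside 50.9% of all protein-coding genes. Among cytosolic ribosomal protein genes 85 of 88 were on, with a median of 671 FPKM for those on, and the other 3 included RPL3L, a form known from muscle. Mitochondrial ribosomal protein genes were on in 75 of 76 cases at a median of 43.7 FPKM, proteasome subunits in 45 of 48, complex I subunits in 35 of 42 and aminoacyl-tRNA synthetases in 34 of 35. The DNA replication licensing gene MCM7 averaged 293 ± 16.1 FPKM, and TYMS, which makes thymidylate, averaged 228 ± 12.6. The mitotic kinase PLK1 averaged 110.04 ± 6.12 FPKM, while MKI67, the classic proliferation antigen with a very long transcript, had 4.61, 2.91 and 3.68 FPKM. Library 2 was the lowest for MKI67, and it was also the lowest for TOP2A (11.3, 6.11 and 7.54 FPKM).

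Promoter sequences are shown for genes at both ends of this range, because the most abundant group, the ribosomal proteins, is known for a shared start of its transcripts: a C followed by a run of pyrimidines, the terminal oligopyrimidine tract through which their translation is controlled. The 30 bases from 20 before to 10 after the RefSeq start (GRCh38.p14) are given 5′ to 3′ on the gene's strand, with such a run in capitals from the first C at or after 5 bases before the start, although in RPL13A the pyrimidines begin further upstream.
RPLP0, chr12:120201102-120201131, minus strand: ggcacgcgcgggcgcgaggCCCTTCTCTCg
RPL13A, chr19:49487588-49487617, plus strand: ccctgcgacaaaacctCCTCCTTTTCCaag
RPL12, chr9:127451397-127451426, minus strand: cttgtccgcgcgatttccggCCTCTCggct
GAPDH, chr12:6535244-6535273, plus strand: tgcgcagcgggtgcatccctgtccggatgc
A run of at least 5 pyrimidines whose first C lies between 5 bases before the start and base 6 was present in 52 of 68 ribosomal protein genes on with a window (76.5%), on the gene's strand only. It was present in 3444 of all 15474 protein-coding windows in the table (22.3%). Outside the ribosomal proteins, 8 of 21 genes of 1000 FPKM or more had it. GAPDH did not at the start used here, which lies inside the gene, whose RefSeq span begins at 6534517. Other GAPDH starts were not read. These matches are a description of letters, and translation was not measured.

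MT2A is shown because metallothionein genes are known to answer to zinc and cadmium through metal response elements bound by MTF1. The 150 bases before its start (GRCh38.p14, chr16:56608434-56608583, plus strand) are given with the core of that element (TGCGCNC or TGCACNC, on either strand) and the TATAAA box in capitals.
MT2A: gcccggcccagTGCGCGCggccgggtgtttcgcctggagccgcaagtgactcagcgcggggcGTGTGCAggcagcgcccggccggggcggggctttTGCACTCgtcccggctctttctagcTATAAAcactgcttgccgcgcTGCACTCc
The stretch printed held 4 cores, and TATAAA began 29 bases before the start. The full window of 250 bases before to 50 after the start held 8 cores in MT2A, 4 in MT1X and 2 in GAPDH, the last at the internal start named above. At least 1 core was present in 35.0% of the 15474 windows and at least 4 in 113 of them (0.730%). Of the neighbouring metallothionein genes on chromosome 16, MT1E had 1156, 1301 and 1363 FPKM and MT1X had 248, 280.05 and 381 FPKM. MT1M had 0 counts in every library, and MT1F had 4, 3 and 0 counts. These genes are near-identical in parts of their sequence, so reads may have been divided among them and their single levels are uncertain.

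The promoter table held a window for 79.7% of the protein-coding genes, which is too few to describe the whole set or the genes off, so shares are given for the genes on (82.2% matched) and for the genes of 3 ranges of mean FPKM, which hold a few genes called between as well. Windows rich in CpG, with at least 50% GC and a CpG ratio (observed over expected from base content) of at least 0.6, made up 83.7% of those of the 8110 genes on, beside 64.1% of all windows in the table. The sequence TATAAA, on either strand, was in 5.20% of windows of genes on and 9.56% of all windows. Searched on the gene's strand only and 20 to 40 bases before the start, where a TATA box acts, TATAAA was in 1.66% and 3.65%. These shares therefore differ from the first in both strand and position. By level, CpG-rich windows made up 80.4% at 1 to 10 FPKM, 87.2% at 10 to 100 FPKM and 83.8% at 100 to 1000 FPKM. TATAAA, on either strand, was in 5.43%, 4.27% and 9.27% of the same windows. On the gene's strand 20 to 40 bases before the start it was in 1.41%, 1.51% and 4.28%. The 150 bases before the start of 4 genes are printed to show a CG-rich and a CG-poor promoter among genes on and among genes off, with each CG in capitals.
GAPDH (on), chr12:6535114-6535263, plus strand: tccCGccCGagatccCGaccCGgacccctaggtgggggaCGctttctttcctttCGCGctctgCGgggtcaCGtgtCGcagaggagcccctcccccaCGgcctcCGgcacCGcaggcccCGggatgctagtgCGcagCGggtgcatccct
KRT8 (on), chr12:52926470-52926619, minus strand: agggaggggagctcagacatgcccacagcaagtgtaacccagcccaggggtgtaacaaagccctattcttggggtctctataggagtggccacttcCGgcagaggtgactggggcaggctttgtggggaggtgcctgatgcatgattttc
NT5E (off), chr6:85449933-85450082, plus strand: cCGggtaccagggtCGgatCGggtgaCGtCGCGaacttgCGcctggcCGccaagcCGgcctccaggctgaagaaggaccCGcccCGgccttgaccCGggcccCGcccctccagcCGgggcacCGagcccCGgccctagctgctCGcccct
IBSP (off), chr4:87799404-87799553, plus strand: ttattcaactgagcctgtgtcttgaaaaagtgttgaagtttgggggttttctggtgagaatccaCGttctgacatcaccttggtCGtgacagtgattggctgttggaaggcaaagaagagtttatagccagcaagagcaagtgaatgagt
The stretch held 16 CG in GAPDH and 1 in KRT8, both on, and 17 in NT5E and 2 in IBSP, both off. RefSeq gives several starts for 5191 genes in the table, and only the first listed was used, so the start used by these cells may be another. The GAPDH and KRT8 stretches printed lie inside the RefSeq spans of these genes, chr12:6534517-6538371 and chr12:52897191-52949860.

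Protein-coding rows took 93.5% ± 0.318 (SD, n = 3) of the counts, numbered copies included. Rows of ribosomal RNA genes took 1.75%, 1.31% and 1.07% in libraries 1 to 3, and long noncoding RNA rows 1.00% ± 0.0271. The ribosomal RNA share was highest in library 1 and lowest in library 3. Mitochondrial ribosomal RNA rows took 0.168% ± 0.0251 and the 22 mitochondrial tRNA rows, all on, 0.0411% ± 0.00564. The 13 mitochondrially encoded protein genes had no row under their symbols. A set of 22 rows without a symbol, 13 of them on, held 2.34% ± 0.264, and they were not given names here. Another 205 rows without a symbol held only 0.441% of counts and yet 55.3%, 43.3% and 51.0% of the summed FPKM, since 204 of them have a length, as the ratio of count to FPKM implies it, under 100 bases. The highest of those had 114314, 118719 and 102173 counts but 338793, 121744 and 279039 FPKM. Shares of RNA are therefore given in counts, and FPKM only for rows with a symbol.

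Long noncoding RNA rows were on in 666 of 14687 cases (4.53%), numbered copies included, beside 47.9% of protein-coding rows counted in the same way. The long noncoding rows on had a median of 2.92 FPKM, with 82 over 10 and 10 over 100 FPKM. The 2 highest were host transcripts of small nucleolar RNAs. SNHG29 had 489, 455 and 433 FPKM, and GAS5, a growth-arrest transcript, had 411, 375 and 405 FPKM. Of the 29 named small nucleolar RNA hosts 23 were on, among them SNHG7 (167 ± 16.6 FPKM) and SNHG6 (118 ± 8.41 FPKM). NEAT1, the scaffold of nuclear paraspeckles, had 126, 119.65 and 120.27 FPKM. MALAT1, a nuclear speckle transcript, had 4.79, 2.22 and 4.03 FPKM, and library 2 was the lowest. DANCR (124 ± 4.20 FPKM) and CYTOR (121 ± 11.7 FPKM) were also among the 10 highest. LINC00673, the gene depleted elsewhere in the study, lies on chromosome 17 from 72403322 to 72592804 in RefSeq GRCh38.p14 and had 3.53, 3.46 and 2.75 FPKM from 709, 751 and 516 counts. Of rows named LINC, 106 of 2251 were on, and of antisense rows 193 of 1828. Reads of an antisense row and of its partner cannot be told apart here, since no source used here gives a strand setting.

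Short RNAs were mostly low in these libraries. Whether library preparation kept short RNAs or ribosomal RNA was not tested, so low counts need not mean low levels in the cells. Of the 565 tRNA rows and the 887 immune receptor segment rows, 0 were on, with numbered copies included in these and the other row totals of this paragraph. Small nuclear RNA rows were on in 2 of 64 cases, and RNU1-1 and RNU4-1, the U1 and U4 spliceosomal RNAs, had 0 counts. RN7SK, the RNA that holds the elongation factor P-TEFb inactive, had 5.11, 9.69 and 5.94 FPKM. RN7SL1, the RNA of the signal recognition particle, had 302, 145 and 60.7 FPKM, and its near-identical copy RN7SL2 had 304, 121 and 55.5. The order of the libraries was the same for both, with library 1 the highest, and this is the order of the ribosomal RNA share. Small nucleolar RNAs were on in 139 of 589 rows, such as SNORA70 at 51.4 ± 3.34 FPKM. MicroRNA rows were on in 88 of 2035 cases, such as MIR4709 at 212, 175 and 167 FPKM. The FPKM of such short rows rests on few counts, 403, 357 and 301 for MIR4709, and reads of an overlapping host transcript would be counted in them.

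Regulators of the bone lineage were on in 8 of 18 cases, between in 3 and off in 7, beside 50.9% on and 27.1% off among all protein-coding genes. RUNX2 had 0.325, 0.274 and 0.289 FPKM (154, 140 and 130 counts) and was between, below the level of 1 FPKM in every library. SP7 had 0, 16 and 8 counts and was off. DLX5, a homeobox factor of bone and cartilage, was off at 0, 0.0157 and 0 FPKM, and 0 of the 6 genes of the DLX family were on. TWIST1 and ALX1 had 0 counts in all libraries. In contrast TWIST2, a close relative of TWIST1 that is known to restrain osteoblast maturation, had 6.26, 6.81 and 6.56 FPKM. ATF4, a stress-response factor that osteoblasts also need, had 619, 676 and 679 FPKM, and FOSL1, an AP-1 subunit, had 132, 156 and 156. MSX1 (16.6, 19.4 and 20.8 FPKM) and MSX2 (3.97, 4.56 and 4.42 FPKM), homeobox factors of skull and limb, were on, as was EN1 (1.34 ± 0.143 FPKM).

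Bone matrix and mineralisation genes were on in 10 of 26 cases and off in 12, beside 50.9% on and 27.1% off among all protein-coding genes. SPARC, a collagen-binding protein abundant in bone, had 143, 149 and 149 FPKM. The chains of type I collagen differed: COL1A1 had 30.1, 35.5 and 33.4 FPKM, and COL1A2 had 0 counts in all 3 libraries. ALPL, the alkaline phosphatase that frees phosphate for mineral, had 5.01, 5.09 and 5.63 FPKM. SPP1 had 1.19, 0.383 and 0.846 FPKM and crossed the level of 1 FPKM in library 1 alone. BGLAP had 3, 25 and 3 counts, so its level rested on library 2. IBSP, DMP1, MEPE, POSTN, IFITM5 and TNFSF11 had 0 counts in every library. TNFRSF11B, the decoy receptor that blocks RANK ligand, had 5.16, 4.12 and 4.57 FPKM, while its target TNFSF11 was at 0. The bone morphogenetic proteins BMP4 (19.5 ± 0.832 FPKM) and BMP2 (11.5 ± 0.436 FPKM) were on, as were ANKH, a pyrophosphate exporter (16.1, 24.2 and 21.9 FPKM), and LOX, the collagen cross-linking enzyme (22.0, 19.7 and 22.5 FPKM).

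Cartilage genes were on in 4 of 20 cases, tendon genes in 4 of 8 and adipocyte genes in 3 of 10, beside 50.9% of all protein-coding genes. SOX9, the master factor of cartilage, had 31.3, 35.2 and 36.5 FPKM. Its partners SOX5 and SOX6 were off at 0.0768 ± 0.0157 and 0.0560 ± 0.00411 FPKM. Its best known target COL2A1 had no level above 0.0054 FPKM in any library, and COL10A1 and COMP had 0 counts. COL9A2 (4.63 ± 0.808 FPKM), MATN3 (3.26 ± 0.158) and COL11A1 (1.30 ± 0.188) were on, and ACAN, the main cartilage proteoglycan, was between at 0.379, 0.490 and 0.314 FPKM. SCX, the tendon factor, averaged 4.09 ± 0.230 FPKM, and TNMD was at 0. PPARG, the fat cell regulator, had 15.2, 13.02 and 14.1 FPKM, whereas ADIPOQ and LEP, the hormones of mature fat cells, had 0 counts.

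**Figure D2:**
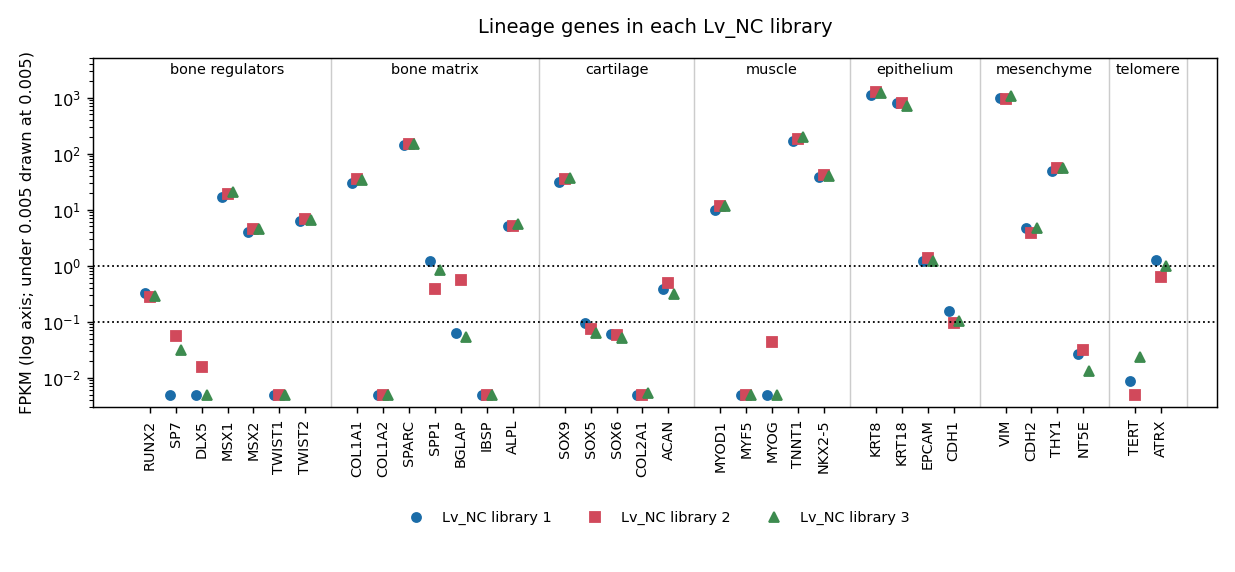
FPKM (log axis, values under 0.005 drawn at 0.005) of named lineage genes in each of the 3 Lv_NC libraries, 1 symbol per library; dotted lines mark 0.1 and 1 FPKM. In the bone, cartilage, muscle and mesenchyme groups some genes lie above the upper line in all 3 libraries and others below the lower line, such as COL1A1 at 30.1 to 35.5 FPKM beside COL1A2 at 0.

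Surface and matrix genes of mesenchymal cells were on in about the share of all protein-coding genes: 13 of 25 on the fibroblast list and 8 of 16 on the stromal surface panel, beside 50.9%. VIM, the intermediate filament of mesenchyme, had 982, 955 and 1058 FPKM. CD44, the hyaluronan receptor, had 76.9, 75.9 and 79.8 FPKM, and THY1, a stromal surface glycoprotein, had 48.0, 54.6 and 56.1 FPKM. ENG, a TGF-beta co-receptor, averaged 15.01 ± 0.710 FPKM. NT5E, which encodes the CD73 enzyme of the same panel, was off at 0.0264, 0.0310 and 0.0130 FPKM. The blood markers on the panel, among them PTPRC, CD14 and HLA-DRA, were off. FN1, fibronectin, had 44.3, 30.9 and 34.9 FPKM, SNAI1, a repressor of epithelial genes, had 14.9, 17.7 and 19.1, and CDH2, N-cadherin, had 4.66, 3.90 and 4.71. DCN and DPT, matrix proteins of dermal and other fibroblasts, were off, and COL3A1 was between at 0.463, 0.443 and 0.507 FPKM.

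The basement membrane collagen COL4A2 was the highest collagen at 261, 290 and 291 FPKM, and 20 of 44 collagen genes were on, near the 50.9% of all protein-coding genes. Of 12 laminin genes 9 were on, led by LAMB3 (216 ± 11.4 FPKM), a chain of the laminin of epithelial basement membranes. Integrins were on in 11 of 26 cases, led by ITGA3, a laminin receptor chain (259, 284 and 267 FPKM). MMP3, stromelysin-1, led the 9 of 24 matrix metalloproteinases on at 208, 187 and 215 FPKM.

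Epithelial genes were on in 6 of 20 cases and off in 7, beside 50.9% on and 27.1% off among all protein-coding genes, and their levels ranged widely. The simple-epithelium keratins KRT8 (1126, 1233 and 1214 FPKM) and KRT18 (805, 813 and 710.02 FPKM) stood at the level of VIM. The epithelial regulators GRHL2 and OVOL1 had 0 counts, and ESRP1, an epithelial splicing factor, was off at 0.0426, 0.0225 and 0 FPKM. CDH1, E-cadherin, was between at 0.156, 0.0964 and 0.102 FPKM, and EPCAM, an epithelial adhesion protein, was just on at 1.202, 1.37 and 1.22 FPKM. CLDN4, a tight junction claudin, averaged 8.22 ± 0.867 FPKM. Of 57 keratin genes 10 were on, among them KRT17 (196 FPKM) and KRT80 (120.29 FPKM), and 4 of 94 keratin-associated protein genes, all of the KRTAP2 group. KRT81 shares much of its sequence with KRT86, so its level is uncertain.

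Muscle genes were also uneven. MYOD1, the factor that starts the skeletal muscle programme, had 9.91, 11.5 and 11.5 FPKM, and PAX7, a muscle stem cell factor, averaged 2.38 ± 0.309 FPKM. MYOG, the factor of muscle differentiation, was off at 0, 0.0437 and 0 FPKM, and MYF5, MYF6 and MYH7 had 0 counts. TNNT1, slow skeletal troponin T, stood far above them at 169, 186 and 196 FPKM. In all, 3 of 17 skeletal muscle genes and 6 of 12 cardiac and smooth muscle genes were on, beside 50.9%. NKX2-5, a homeobox factor of the heart, had 38.6, 41.3 and 39.8 FPKM. NPPB, a cardiac peptide hormone, averaged 9.61 ± 0.891 FPKM, and SMTN, a smooth muscle cytoskeletal protein that other cells also make, averaged 129 ± 8.16. MYH6, MYH11 and MYOCD were off.

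Of the remaining lineage lists, each had a share of genes on below the 50.9% of all protein-coding genes, and most genes were off in the blood, neural crest, liver, gut and kidney, and pluripotency lists. Of the blood and immune list 2 of 22 genes were on, LCK (3.01 ± 0.316 FPKM) and CD3D (2.05 ± 0.381 FPKM), both of T cell signalling, while CD3G, LYZ, HBB and TYROBP had 0 counts. Of the 10 osteoclast genes NFATC1 (20.2 ± 1.16 FPKM), OSCAR (5.03 ± 0.743) and MMP9 (3.81 ± 0.671) were on, and the osteoclast fusion gene OCSTAMP had 0 counts. EGFL7 (125, 144 and 121 FPKM) and SOX17 (10.6 ± 1.10 FPKM) led the endothelial list, of which 5 of 15 were on, while PECAM1, KDR and EMCN were off. Neural genes were on in 6 of 20 cases. TUBB3, neuronal tubulin, averaged 41.7 ± 1.90 FPKM and OLIG2, an oligodendrocyte factor, had 6.597, 6.27 and 6.39 FPKM, whereas PAX6, NEUROD1 and S100B had 0 counts. NGFR alone of 12 neural crest and melanocyte genes was on (3.36 ± 0.174 FPKM). Of 19 liver, gut and kidney genes 4 were on: SERPINA1 (26.1 ± 1.53 FPKM), FOXA2 (6.81 ± 1.12), CDX2 (1.79 ± 0.146) and PAX2 (1.27 ± 0.163). ALB and APOB had 0 counts. Of 16 pluripotency and germ cell genes with a row, PRDM1 alone was on (2.30 ± 0.188 FPKM).

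**Figure D3:**
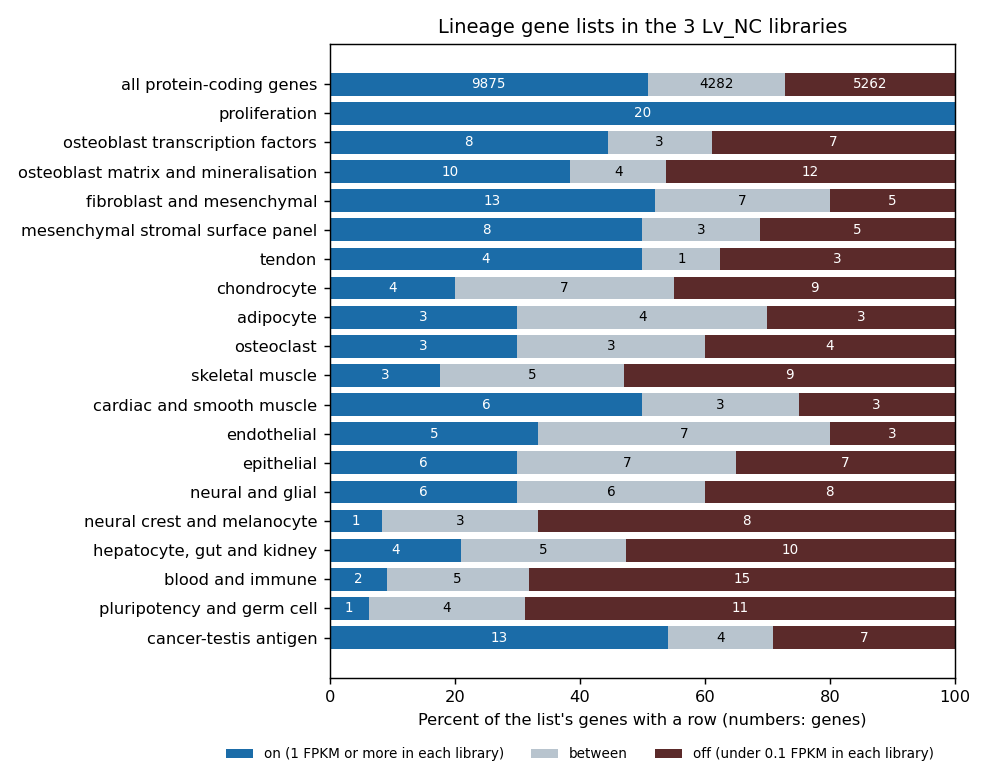
Percent of genes on, between and off (horizontal axis) for all protein-coding genes and for each lineage list, with the number of genes printed in each bar. Of the blood, neural crest and pluripotency lists 2 of 22, 1 of 12 and 1 of 16 genes were on, beside 9875 of 19419 protein-coding genes.

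Several gene families were mostly off. Of 398 olfactory receptor genes 2 were on (OR2W3 and OR51B5), and of 28 taste receptors, 42 beta defensins, 19 UDP-glucuronosyltransferases, 18 type I interferons and 18 HLA class II genes 0 were on. Potassium channel genes were on in 23 of 125 cases, led by KCNN4 (71.7 FPKM), and cytochrome P450 genes in 9 of 56. Genes of a cancer-testis list were on in 13 of 24 cases, near the 50.9% of all protein-coding genes. Many such genes are normally limited to the germ line and often active in tumours. The genes on include MAGED1 (64.2 FPKM) and MAGED2 (112 FPKM), to which that description need not apply. XAGE1B had 245, 263 and 285 FPKM, MAGEA4 had 239, 244 and 215, and PRAME had 71.9, 66.1 and 72.7, while SSX2, SSX4 and CTAG1B had 0 counts. Whether the cancer-testis list differs from the others was not tested, and reads of near-identical members such as MAGEA3, MAGEA6 and MAGEA12 may be divided among them.

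Positional and developmental factors were on in part. HOX genes were on in 7 of 11 cases in the A cluster, 6 of 10 in B, 7 of 9 in C and 2 of 9 in D, beside 50.9% of all protein-coding genes, led by HOXB9 at 27.7, 28.7 and 31.4 FPKM. FOXD1, a forkhead factor of kidney stroma, was the highest of its family at 124, 134 and 124 FPKM, followed by the cell cycle factor FOXM1 (95.8 FPKM). Of the ETS family ETV4 (101 FPKM) led, and of 17 T-box genes TBX3 alone was on (10.2 FPKM). Of the 532 ZNF zinc finger genes 204 were on (38.3%), and of 58 clustered protocadherins 2.

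Receptor tyrosine kinases were on in 22 of 38 cases and nuclear receptors in 22 of 41, both near the 50.9% of all protein-coding genes. EPHA2, an ephrin receptor, had 186, 198 and 189 FPKM, and AXL, the receptor of GAS6, had 167, 175 and 182. EGFR averaged 5.13 ± 0.282 FPKM and PDGFRB 3.40 ± 0.173, while KIT and FLT3 were off. ESR1 and PGR, the oestrogen and progesterone receptors, were off, and VDR, the vitamin D receptor, averaged 2.43 ± 0.0671 FPKM. Among ligands TGFB1 had 128, 147 and 154 FPKM, and 6 of 19 Wnt, 5 of 22 FGF, 7 of 38 interleukin and 10 of 47 chemokine genes were on. IL18, a cytokine of the IL-1 family, led the interleukins at 81.9 FPKM, and CCL20 led the chemokines at 36.5 FPKM.

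The genes that mark the line's identity were read as a check of the label. TERT, the catalytic subunit of telomerase, was off with 4, 0 and 8 counts, and its RNA partner TERC had no row. ATRX, a chromatin remodeller often lost in lines that maintain telomeres by recombination, had 1.28, 0.639 and 0.982 FPKM. DAXX, its partner, had 13.6, 13.9 and 14.8 FPKM in its first row and 60.8 ± 2.55 FPKM summed over 5 rows. The shelterin genes TERF2 (14.2 ± 1.18 FPKM), TERF2IP (24.4 ± 1.15) and ACD (47.7 ± 2.19) were on, and POT1 was between at 0.573, 0.173 and 0.197 FPKM. CDKN1A, a cyclin-dependent kinase inhibitor, had 131, 134 and 134 FPKM. CDKN2A had 0, 12 and 0 counts. RB1, the retinoblastoma protein gene, had 1.40, 0.838 and 1.25 FPKM and was under 1 FPKM in library 2 alone, while ATRX was under it in libraries 2 and 3. MYC averaged 156 ± 13.9 FPKM and CDK4 155 ± 7.41 FPKM. MDM2, a ubiquitin ligase, had 3.93, 2.50 and 3.59 FPKM.

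The spread between libraries fell with level and levelled off. For CPM scaled by trimmed mean of M values (TMM), the median coefficient of variation (CV, the SD over 3 libraries as a percent of the mean) was 38.4% in the 6382 rows from 0.1 to 1 CPM and 17.2% in the 6453 rows from 1 to 10. It was 9.77% in 7003 rows from 10 to 100, 7.73% in 1963 rows from 100 to 1000 and 7.998% in the 107 rows above. Counting error alone would give 20.4%, 5.87%, 2.06%, 0.831% and 0.272% at these levels, if every count were an independent fragment. Over the 9073 rows of at least 10 CPM the median CV was 9.05%. The common biological CV from edgeR, over the 19482 rows that pass its low-count filter, was 0.205. A difference of a few percent between libraries is therefore within their usual spread at any level.

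**Figure D4:**
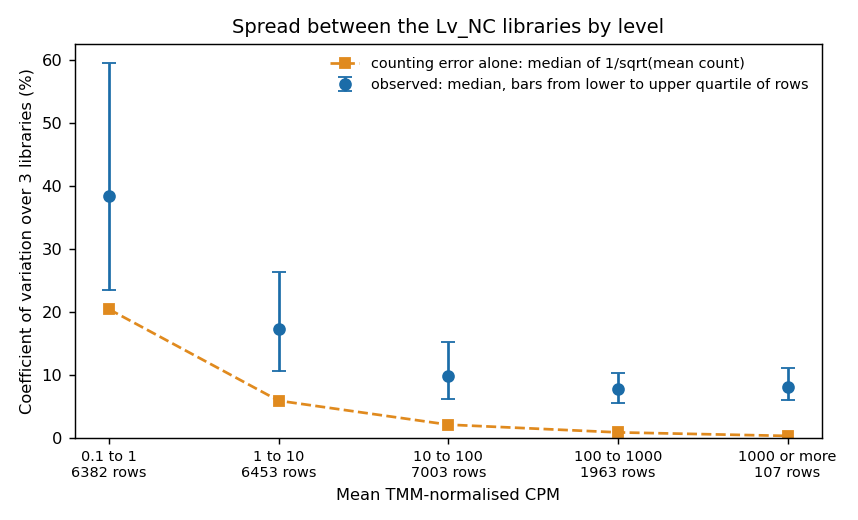
Coefficient of variation over the 3 Lv_NC libraries (vertical axis, percent) by mean TMM-normalised CPM (horizontal axis), as the median with bars from lower to upper quartile of rows, and the value counting error alone would give. The observed median stays above the counting error at every level and is 7.73% and 7.998% in the 2 highest groups.

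Across the 9073 rows, Pearson's r of log2 CPM was 0.974, 0.980 and 0.980 for libraries 1 and 2, 1 and 3, and 2 and 3, as a description across genes, which are not independent replicates. Of these rows 67.4%, 78.9% and 75.7% lay within 20% of each other, and 1.30%, 1.15% and 1.06% differed by more than 2-fold. Library 2 was the highest of the 3 in 44.6% of rows and the lowest in 32.3%, and library 1 was the lowest in 42.1%. The chi-square per degree of freedom between the counts of each pair was 67.0, 55.4 and 49.8, given only to describe that no library repeats another, since a count need not be an independent fragment.

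The libraries deviated by base composition. Of 8161 genes, 8011 (98.2%) had a transcript GC content, and each library's deviation from the gene's mean log2 CPM was followed over deciles of these genes. In the lowest decile, of median GC 38.3%, the median deviation was 0.16, -0.21 and 0.05 in libraries 1 to 3. In the highest decile, of median GC 64.5%, it was -0.10, 0.12 and -0.02. Spearman's rho of the deviation with GC, across genes that share the library, was -0.582, 0.696 and -0.201. The median CV was 15.2% in the decile of lowest GC and 7.04% in the sixth. GC-poor transcripts were thus lowest in library 2. Library 2 was also the lowest for MKI67, TOP2A, RB1, ATRX and MALAT1, and the part of GC content in these was not tested. The 16 housekeeping genes had no common order, with 8 highest in library 1, 7 in library 2 and 1 in library 3, and a median deviation of 0.03, -0.01 and -0.02. Among them YWHAZ, a 14-3-3 protein, had 84.6, 34.2 and 68.9 FPKM.

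**Figure D5:**
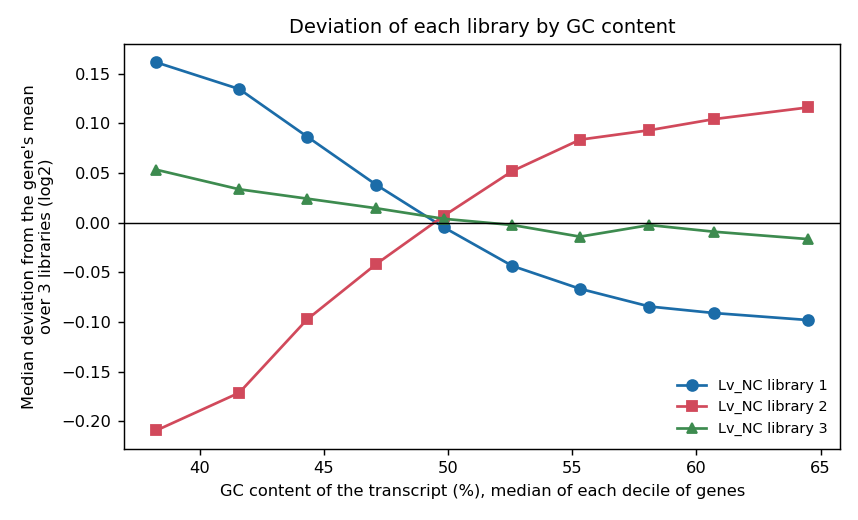
Median deviation of each Lv_NC library from the gene's mean over the 3 libraries (vertical axis, log2) by GC content of the transcript (horizontal axis, median of each decile of 8011 genes). The line of library 2 rises from -0.21 to 0.12, that of library 1 falls from 0.16 to -0.10, and library 3 stays between 0.05 and -0.02.

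The steadiest rows of at least 10 CPM were MOCOS (1368, 1398 and 1275 counts, CV 0.112%), a molybdenum cofactor enzyme, PNO1 (CV 0.215%), a ribosome assembly factor, and TBC1D31 (CV 0.340%). Their CV lay below the counting error of 2.72%, 1.22% and 3.34%. The 15 most variable rows had a CV of at least 70.4%. RNA45SN5, a ribosomal RNA precursor, had 2520, 2196 and 19171 counts and was high in library 3 alone. The listed positions of RNA28SN5, a mature ribosomal RNA row, lie within those of RNA45SN5. RNA28SN5 had 117008, 93585 and 54290 counts. Reads may have been divided between these rows, and this was not tested. RPS25, a ribosomal protein, had 7755, 7791 and 89 counts. BOLA2, an iron-sulfur cluster protein, had 1185, 1427 and 13, and KTI12 had 1761, 2212 and 36. MIR34AHG, the host transcript of miR-34a, had 17, 1735 and 1635 counts. ACAP1 had 2734, 82 and 2525 counts. Each of the most variable rows named here except RNA45SN5 was nearly missing from 1 library and present in the others.

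Several of these differences became small when the numbered copies of a gene were added up. Of the 15 rows, 12 had a numbered copy or a row counted as overlapping them in RefSeq, and RNA45SN5 was not among the 12. The CV was under 20% in 5 after summing the copies alone and in 7 after summing the overlapping rows as well. RPS25 went from a CV of 85.0% to 0.943% with its copy. RPS18, with 526, 23512 and 7451 counts in its first row, went from 109% to 13.5% over its 6 rows. CD99 went from 82.7% to 5.22%, and ECH1 from 77.5% to 8.30%. For KTI12 and BOLA2 the lower CV came from adding larger overlapping rows that did not take up the missing counts. TXNDC12, which overlaps KTI12, had 66.4, 53.9 and 65.2 CPM. BOLA2B, a near-identical gene elsewhere on chromosome 16 that was not summed and was chosen after its values were seen, had 1402, 1858 and 2751 counts. ACAP1, CHTF8 and MIR34AHG kept a CV of 79.9%, 66.8% and 73.7%, and SDC3 and MTPN had no such row. An opposite change was seen for a pair chosen after its values were seen, SNRPN (1921, 5264 and 1927 counts) and SNURF (3204, 818 and 3331), which overlap on chromosome 15. Their CV was 59.8% for SNRPN alone and 4.31% when overlapping rows were summed. HLA-B, a class I antigen gene also chosen after its values were seen, had 953, 33 and 0 counts while HLA-C had 8769, 9100 and 8520. The level of a single row is therefore uncertain where copies or overlapping genes exist.

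The lineage calls were checked for copies and overlaps. Of 632 listed genes with a row, 9 changed their call when numbered copies were summed. Among them, H19 and MAGEL2 became on, and COL11A2, HLA-DRA, LGALS4, MYH11, NANOS3 and POU5F1 went from off to between. Of the 163 genes off, 17 overlap in RefSeq a row that is on, including COL10A1, CD14, SOX10 and PAX6, so counts of those genes could stand under another name. SP7, TWIST1, COL1A2, IBSP and NT5E are not among them.

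The threshold itself was narrow in places. The genes just on were LOC100132154, ATP6V0D1-DT and TRIM66, with a lowest library of 1.00 FPKM each, and just under it were SEPTIN1, HAPLN1 and NKD2, with a lowest library of 0.9997, 0.9996 and 0.9995 FPKM. By chromosome, the share of protein-coding genes on ran from 39.6% on chromosome 13 and 39.8% on chromosome 4 to 61.6% on chromosome 16 and 64.1% on chromosome 22.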

How the data were processed

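The authors deposited 1 table of whole-number counts and 1 table of FPKM per gene. The build was hg38, per the submitters' processing notes, and the sources used here name no aligner, counter, annotation or strand setting. In 91.5% of values of the 13030 rows with at least 100 counts, the deposited FPKM lay within 5% of a fixed ratio to the share of counts. Of 50550 rows 44494 had a symbol, 6056 had none and 5054 were numbered copies of another row. RNA class and position came from RefSeq (GRCh38.p14) for 42782 rows, 494 of them by an older symbol.

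The 3 libraries labelled Lv_NC (76814723 to 87227980 counts) form 1 group, so values, mean ± SD and counts of genes are given with no test. Rows were on at 1 FPKM or more in each library and off under 0.1 FPKM in each. TMM factors and the common biological CV came from edgeR 4.0.16 in R 4.3.3 (19482 rows after its low-count filter) and were checked on simulated data. Other steps used Python 3.11.15. Promoters were RefSeq windows of 250 bases before to 50 after the start.

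The genes and lists were chosen with earlier results of these data known. Named genes were the 20 highest protein-coding rows, the 10 highest long noncoding RNAs and the 3 highest of other classes, up to 6 of the highest on and up to 6 off of each list, up to 4 per family, a fixed set of lineage and tumour genes, the 15 most and 10 least variable rows, and those beside the threshold. The metallothionein genes other than MT2A, and a few list members outside this rule, were chosen after their values were seen. Alternatives were other thresholds, units, normalizations and row sets, and each library left out.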

Additional observations from a re-analysis of the deposited data

How the results depend on the processing

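No paired analysis was possible because only 1 group of libraries was used. At 5 FPKM in place of 1, 7307 rows were on (12301 at 1 FPKM), among them 6270 protein-coding genes (9875) and 174 long noncoding RNA rows (666), and at 0.5 FPKM 1039 long noncoding RNA rows were on. As a share of summed FPKM in place of counts, protein-coding rows held 45.0% in place of 93.5%, and 32 rows held 50% in place of 681, since short rows without a symbol dominate the FPKM sum. Leaving out each library in turn gave 12462 to 12759 rows on, 694 to 714 long noncoding RNA rows on and 9935 to 10206 protein-coding genes on. A row on in all 3 libraries stays on when 1 is left out, so counts of rows or members on could not fall. The same alternatives gave a protein-coding share of 93.3% to 93.6% and 669 to 694 rows holding 50% of counts. They gave a median CV of 6.66% to 8.85% and a common biological CV of 0.194 to 0.233. Without a filter on low counts the common biological CV was 0.292. Of 540 alternative counts of list or family members on, 464 stayed within 1.5 times, as did 158 of 175 counts of members off. These totals include the alternatives with 1 library left out, in which 90, 87 and 90 of 90 counts of members on stayed. At 5 FPKM 42 of 90 stayed and 48 moved, at 1 CPM 71 stayed and 19 moved, and at 0.5 FPKM 84 stayed. For members off, 24 of 35 counts stayed under a rule of fewer than 10 counts in each library, and 11 moved. With FPKM rescaled to an equal sum in each library, 986 of 1035 mean levels of named genes moved by no more than the SD between libraries. The other 49 moved by more. Leaving out 1 of 3 libraries cannot move a mean by as much as that SD, so those alternatives could not test the levels. Summing copies and overlapping rows, an alternative chosen after seeing the data, moved the CV of 8 of the 15 most variable genes. Counts at or under 3 in a library, as for COL2A1 and BGLAP, leave the level undetermined, and the counting error given understates the true one if counts come in multiples.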
